A study of Mus musculus with 6 samples.

Results

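Oxidative phosphorylation is carried out by 5 enzyme complexes of the inner mitochondrial membrane, and the nuclear genes of these complexes are described here in mouse liver. The genes were taken by symbol (Nduf followed by a, b, c, s or v, Uqcr, Cox4 to Cox8, Sdha to Sdhd, and Atp5) with an expected count of at least 10 in at least 1 library. The rule uses no contrast between conditions. It gave 87 genes of the 14197 that reached the same count minimum, from 18443 genes listed. Complex I had 45 of them, complex II 4, complex III 8, complex IV 13 and complex V 17. By role, 17 are core subunits that carry out electron transfer or ATP synthesis, 57 are accessory subunits, 7 are complex I assembly factors, 3 are no subunit and 3 are isoforms of other tissues. Cox6a2, Cox8b and Cox4i2, isoforms known from muscle, fat or lung, also matched by symbol but did not exceed 7 counts in any library and were left out.

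Complexes I and II pass electrons from NADH and succinate to ubiquinone, complex III passes them to cytochrome c, and complex IV passes them to oxygen. Complexes I, III and IV pump protons, and complex V uses the gradient to make ATP. Hepatocytes are rich in mitochondria and oxidise fatty acids through this chain. Complex II is encoded in the nucleus alone, whereas 13 subunits of the other complexes are encoded in mitochondrial DNA. None of these 13 is listed in the libraries, so the values below describe the nuclear genes alone.

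The libraries came from livers of male C57BL/6 mice (C57BL/6J in the methods) from 2 models of liver disease. Their stated age of 6 to 8 weeks is that of the mice put to use, and the age at sampling after the diets or injections is not given. In the diet model, 1 library was made from mice on a standard diet (SD) and 1 from mice on a high-fat diet (HFD) for 16 weeks. A further 1 came from mice on the high-fat diet that also received JT003 at 500 μg/kg for 4 weeks. In the CCl4 model, 1 library came from mice given corn oil, 1 from mice injected with 20% CCl4 in corn oil at 5 ml/kg every 3 days for 6 weeks, and 1 from mice given CCl4 together with 500 μg/kg JT003 for 3 weeks. JT003 is a peptide agonist of the adiponectin receptors AdipoR1 and AdipoR2. The labels call the HFD liver NASH, while the methods describe a high-fat diet alone and one combined with a second diet lacking methionine and choline, and it is not stated which of them was sequenced. The methods give 6 mice per group, but whether a library holds 1 liver or a pool is not stated. With 1 library per condition there was no replicate check, so every difference below is between 2 libraries and its interval covers counting error only.

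The libraries held 19374236 to 20184539 rounded expected counts, and 16082 to 16738 genes were listed in each. Levels across libraries are given as CPM, counts scaled to 1000000 reads per library after TMM scaling. The 8 hepatocyte markers summed to 82730 to 103116 CPM, and the 3 skeletal muscle markers found summed to at most 1.00. Between SD and HFD, 8 stellate cell and myofibroblast markers summed to 58.9 and 168 CPM, and to 84.4 with JT003. In the CCl4 model these markers summed to 74.2, 270 and 136 in the corn oil, CCl4 and CCl4 plus JT003 libraries. In these libraries 4 proliferation markers summed to 3.76, 112 and 14.1. The 7 macrophage markers summed to 74.2, 185 and 301, where the diet model had 312 to 425. Members of a list differed. Acta2 had 165, 108 and 45 counts and Col1a1 231, 2483 and 876. Among macrophage markers Marco had 41, 161 and 1252 counts and Adgre1 24, 191 and 151. The 5 biliary markers summed to 50.1, 156 and 143 in the same 3 libraries, with 26.5 to 40.5 in the diet model. The 6 endothelial markers summed to 210 to 242 in the diet model and 66.7 to 118 in the CCl4 model. The 2 brown adipocyte markers found summed to 19.2 in HFD and at most 0.931 elsewhere. The HFD value was that of Cidea alone (386 counts), with Ucp1 at 0 counts. The part of these cells in the values below was not tested, and in a bulk liver fewer cells of a type cannot be told apart from less RNA per cell.

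Promoter sequences were available from RefSeq (build GRCm38.p6) for 74 of the 87 genes, as windows of 300 bases from 250 before to 50 after the start. They were searched on both strands for short forms of motifs known from respiratory chain promoters. The NRF1 motif GCGCATGC was in 12 of 74 genes (16.2%, against 3.05% of 27025 genes with a window), the ETS motif CCGGAAG bound by GABP in 17 (23.0% against 9.93%), and the YY1 motif AAGATGGC in 11 (14.9% against 3.19%). At least 1 of these 3 motifs was in 34 genes, 45.9% of those with a window against 14.9% of all. The TATA box TATAAA was in 5 (6.76% against 15.7%), the GC box GGGGCGG in 23 (31.1% against 25.5%), the CCAAT box CCAAT in 33 (44.6% against 41.1%) and the ERR motif TCAAGGTCA in 2 (2.70% against 0.466%). These are matches of letters and not mapped sites.

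The 250 bases before the start are shown for 4 genes whose levels are given below, 1 each from complexes I, II, III and V, to show a window with and without such motifs. Capitals mark an NRF1 motif in Sdhb and an ETS motif in Uqcr11 and Atp5h, read here on the strand of the gene. The Ndufab1 window (chr7:122101849-122102098, minus strand) held none of the 4 motifs NRF1, ETS, YY1 and ERR.
Ndufab1: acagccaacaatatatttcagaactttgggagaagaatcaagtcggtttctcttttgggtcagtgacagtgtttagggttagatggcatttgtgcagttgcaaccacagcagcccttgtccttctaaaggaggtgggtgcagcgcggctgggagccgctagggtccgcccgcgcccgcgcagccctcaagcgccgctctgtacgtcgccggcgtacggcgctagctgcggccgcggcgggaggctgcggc
In Sdhb (chr4:140961021-140961270, plus strand) the marked GCATGCGC begins 54 bases before the start.
Sdhb: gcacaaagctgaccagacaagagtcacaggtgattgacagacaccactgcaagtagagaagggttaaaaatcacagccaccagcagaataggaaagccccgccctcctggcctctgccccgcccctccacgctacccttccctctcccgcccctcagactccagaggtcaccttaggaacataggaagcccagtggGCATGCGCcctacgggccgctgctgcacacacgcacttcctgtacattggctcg
In Uqcr11 (chr10:80406822-80407071, minus strand) the marked CCGGAAG begins 66 bases before the start.
Uqcr11: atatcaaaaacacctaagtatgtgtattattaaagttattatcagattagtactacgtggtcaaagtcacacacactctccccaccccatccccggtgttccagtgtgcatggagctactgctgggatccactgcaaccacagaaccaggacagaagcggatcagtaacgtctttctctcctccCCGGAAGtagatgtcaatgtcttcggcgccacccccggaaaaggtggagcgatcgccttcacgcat
In Atp5h (chr11:115419920-115420169, minus strand) the marked CTTCCGG begins 38 bases before the start.
Atp5h: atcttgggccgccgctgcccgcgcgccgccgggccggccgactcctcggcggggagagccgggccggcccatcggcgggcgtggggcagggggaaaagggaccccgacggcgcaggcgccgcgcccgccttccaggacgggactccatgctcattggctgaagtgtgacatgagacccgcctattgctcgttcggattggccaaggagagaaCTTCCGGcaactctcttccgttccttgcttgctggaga

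The levels of the genes differed strongly within a complex and were ordered alike in all libraries. FPKM, which corrects for transcript length, allows genes to be compared. Over the 87 genes the rank correlation of FPKM between 2 libraries was 0.939 to 0.994, given as a description. The median FPKM of the 87 genes was 100 to 168, against 3.28 to 4.21 for all genes. In SD the highest FPKM was 555 for Atp5b, the catalytic β subunit of ATP synthase, and in HFD, corn oil, CCl4 and CCl4 plus JT003 it was that of Cox6a1, the liver form of a complex IV subunit, at 502, 747, 758 and 864. In complex I, Ndufa4, named for complex I but known as a complex IV subunit, had the highest FPKM in every library, at 375 in SD and 709 in CCl4 plus JT003. In complex II the 4 subunits lay close together, from 109 for Sdha to 146 for Sdhc in SD. In complex III the range in SD was 94.5 for Uqcrc2, a large scaffold protein, to 202 for Uqcr11, the smallest subunit. The lowest FPKM in complex V was that of Atp5s, at 2.52 to 5.59.

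Isoforms of other tissues stayed at 1.84% of their liver partners or lower. Cox6b2, the testis form, had counts of 0.121% to 1.02% of those of Cox6b1. Cox7a1, the heart and muscle form, had 0.879% to 1.84% of the counts of Cox7a2. Ndufa4l2, known to be induced by hypoxia, had 0.398% to 1.27% of the counts of Ndufa4. These percentages are within a library and do not depend on how libraries are scaled.

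Of all reads, the 87 genes took 1.00% (SD), 0.950% (HFD) and 0.927% (HFD plus JT003) in the diet model, and 1.27% (corn oil), 1.32% (CCl4) and 1.42% (CCl4 plus JT003) in the other. Counting intervals on these shares were narrow (95% Clopper-Pearson, 0.9959% to 1.005% in SD). Complex V held 33.3% to 38.0% of these reads, complex I 26.7% to 29.0%, complex IV 15.9% to 19.8%, complex III 10.7% to 11.8% and complex II 6.11% to 9.18%. Complex II took 7.47%, 8.92% and 9.18% of them in SD, HFD and HFD plus JT003, and 6.17%, 7.42% and 6.11% in corn oil, CCl4 and CCl4 plus JT003. Its share was thus higher in HFD than in SD and higher in CCl4 than in corn oil. Between SD and HFD the rise was mostly that of Sdha, from 6313 to 8472 counts. Sdhb had 2392 and 2476 counts, Sdhc 3443 and 3460, and Sdhd 2926 and 2304.

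**Figure D1:**
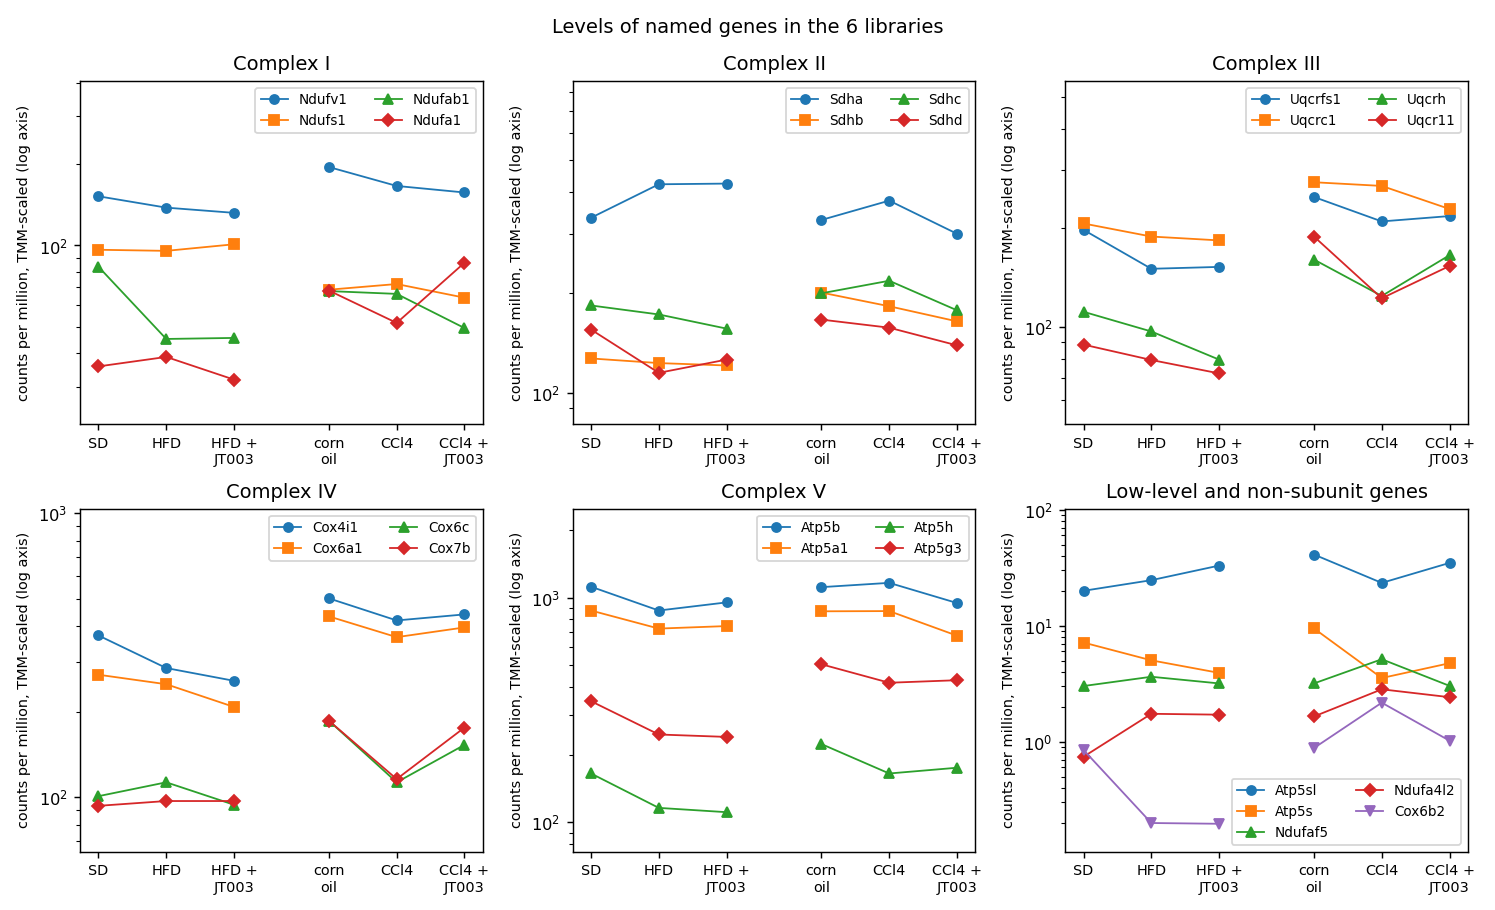
Levels of named genes in the 6 libraries, as TMM-scaled CPM on log axes with a separate range per panel. Each point is 1 library and lines join the libraries of a model. Ndufab1 stands at 83.4 in SD and 45.1 in HFD, and Cox7b and Cox6c are lower in CCl4 than in the corn oil and CCl4 plus JT003 libraries.

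The first comparison asks how the high-fat diet liver differs from the standard diet liver. Few of the 87 moved far. Most stood slightly below the median of all genes in HFD, 71 of them under TMM scaling and 70 under total reads, but against genes of like expression (20 bins of mean expression) their median was -0.01, with 2 higher and 3 lower past the limit used below. The median log2 ratio was -0.13 against 0.00 for all genes, and 70 of 87 ratios were negative, 53 of them with an interval below 0. A gene was taken as higher or lower at a log2 ratio of at least 0.5 with an interval that left out 0, and 1 gene was higher and 5 were lower. Among all genes tested 12.0% were higher and 10.4% lower by the same limit. None was called at an adjusted p under 0.001 with a log2 ratio of at least 1, where 5.44% of all genes were. Without the limit on the ratio, 34 of the 87 passed that adjusted p, against 23.6% of all genes. A test of counts passes more easily with more reads, here and in the comparisons below. The 87 genes are far more abundant than most (median FPKM 109 against 3.68 in SD), so the 2 shares are not at like depth. Scaling by total reads moved the median of all genes by over 0.1, to 0.13, and that of the 87 genes to -0.01, with 3 genes higher and 2 lower. The position against the median of all genes was -0.14 with TMM and -0.13 with total reads.

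Ndufab1 showed the largest fall among the genes with at least 100 counts. It encodes the mitochondrial acyl carrier protein, an accessory subunit of complex I that also serves mitochondrial fatty acid synthesis. Its level was 83.4 CPM in SD, 45.1 with the high-fat diet and 45.5 when JT003 was added. The log2 ratio between SD and HFD was -0.89 (95% interval -1.01 to -0.77). In the CCl4 model it stood at 67.8, 66.2 and 49.5. The SD library was therefore the highest of the 6, and the 2 diet libraries the lowest.

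The core subunits of complex I had log2 ratios from -0.47 to 0.01 in HFD, none past the limit. Ndufs7, the iron-sulfur subunit next to the ubiquinone site, had 69.1 CPM in SD and 49.7 in HFD. Ndufs1, the largest iron-sulfur subunit, had 96.4 and 95.5. The 7 assembly factors lay the other way, with a median log2 ratio of 0.26 and 6 of 7 positive, led by Ndufaf7 (0.47, from 11.1 to 15.4 CPM) and Ndufaf1 (0.46, from 15.6 to 21.5). Ndufaf7 is a methyltransferase that serves complex I assembly, and Ndufaf1 serves the assembly of its membrane arm. None of the 7 reached the limit of 0.5.

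Complex II had no subunit past the limit, and its subunits went different ways. Sdha, the flavoprotein that oxidises succinate, had 335 CPM in SD and 422 in HFD (log2 ratio 0.33, 0.29 to 0.38). Sdhd, a membrane anchor of the same enzyme, had 155 and 115 (-0.44). As a ratio within a library, Sdha counts were 264% of Sdhb counts in SD, 342% with the high-fat diet and 349% when JT003 was added. The 2 HFD libraries thus stood together and above SD.

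Complex V had the lowest median of the 5 complexes, -0.27 over 17 genes, with 3 past the limit. Atp5h, the stalk subunit d, fell from 165 to 116 CPM (-0.51). Atp5g1, 1 of 3 genes for subunit c of the rotor ring, fell from 147 to 104 (-0.50). Atp5g3 (346 to 246) and Atp5g2 (110 to 83.2) had log2 ratios of -0.49 and -0.40. The 3 genes encode the same mature protein, so reads they share may have been split between them. Atp5b and Atp5a1, the β and α subunits, had log2 ratios of -0.35 and -0.27, below 0 by counting error but short of the limit. The third was Atp5s, named for ATP synthase but listed by RefSeq as Dmac2l and no structural subunit, with counts of 135 and 101 (-0.50). With total reads Atp5h and Atp5s both had -0.38, short of the limit.

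Complex III had a median of -0.14 and complex IV of -0.19. The lowest in complex III was Uqcrfs1, the Rieske iron-sulfur protein, at 197 and 150 CPM (-0.39), and the lowest in complex IV among genes with at least 100 counts was Cox4i1, at 371 and 285 (-0.38). Cox6b2 fell from 16 to 4 counts and Ndufa4l2 rose from 14 to 35 counts (log2 ratio 1.13, 0.30 to 2.24), the 1 gene past the limit upwards. Both rest on few reads.

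**Figure D2:**
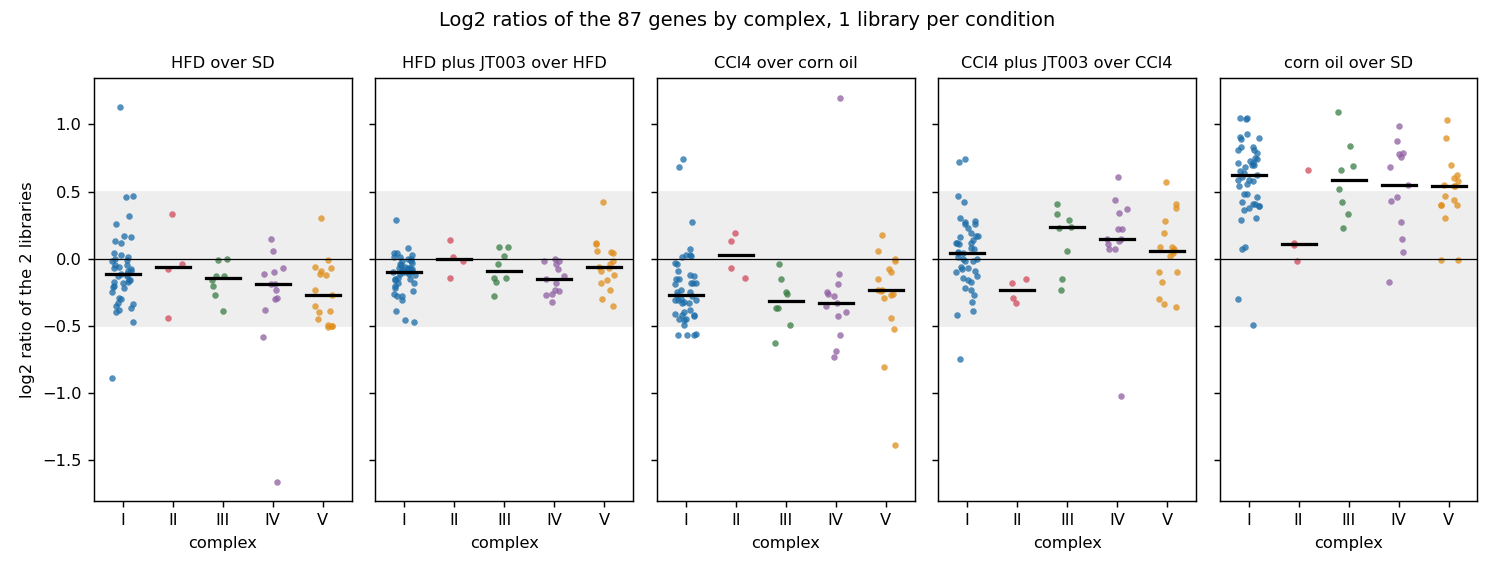
Log2 ratios of the 87 genes by complex in the 4 comparisons and between the 2 control libraries. Each point is 1 gene, black bars are medians and the grey band spans -0.5 to 0.5. With TMM scaling medians are below 0 in all 5 complexes in HFD over SD, while total reads give 0.01 and 0.06 in complexes I and II. They are between 0.11 and 0.62 in corn oil over SD and opposite in sign between the JT003 panels for complexes I, III, IV and V.

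The second comparison, which shares the HFD library with the first, asks whether JT003 changed these genes in the high-fat diet liver. None of the 87 passed the limit in either direction, where 6.28% of all genes were higher and 6.40% lower, and none was called, where 1.67% of all genes were. By the adjusted p alone, 16 of the 87 passed, against 14.3% of all genes, again at unlike read depth. Log2 ratios ran from -0.47 to 0.42 with a median of -0.09, against -0.01 for all genes, and 67 of 87 were negative. The medians were -0.10 in complex I, -0.01 in II, -0.09 in III, -0.15 in IV and -0.06 in V. The ratio moved with transcript length, with a rank correlation of 0.37 over the 87 genes and 0.15 over 14177 genes. The 56 genes with transcripts of at most 1000 bases had a median of -0.12, and so did all genes of that length. After centring in 20 length bins the median of the 87 genes was 0.02.

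The lowest ratios with JT003 were those of the complex I assembly factors Ndufaf7 (-0.47) and Ndufaf3 (-0.46) and of the accessory subunit Ndufa13, which had 72.6 CPM in HFD and 55.3 with JT003 (-0.39). Cox6b1, on the intermembrane side of complex IV, had 165 CPM in HFD and 132 with JT003 (-0.32). Uqcrh, the hinge protein and the lowest of complex III, had 96.7 and 79.4 (-0.28). Ndufaf7 had 15.4 and 11.1, the level of the SD library. The core subunits had a median of 0.01, and Atp5b had 876 and 952 CPM (0.12, where SD had 1118). Atp5sl, listed by RefSeq as Dmac2 and known for complex I assembly, was the highest, at 24.7 and 33.0 (0.42). Ndufab1, Sdha and Ndufa4l2, which lay apart in HFD, had log2 ratios of 0.01, 0.01 and -0.02 with JT003.

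The third comparison asks how the CCl4 liver differs from the corn oil liver. The 87 genes stood lower relative to other genes by their median. Past the limit 11 fell (12.6%), near the 13.6% of all genes that were lower, and 3 rose (3.45%), where 15.0% of all genes were higher. The median log2 ratio was -0.26, against -0.02 for all genes, and 73 of 87 were negative. Only 1 gene, Atp5s, was called, where 7.14% of all genes were. By the adjusted p alone 56 of 87 passed, against 26.3% of all genes, which have fewer reads, so this is no measure of enrichment. The direction depends on the scaling. With total reads the median of all genes was 0.24 and that of the 87 genes 0.01, with 2 genes lower and 4 higher. The position below the median of all genes was -0.24 with TMM and -0.23 with total reads. Centring on transcripts of like length brought the median to -0.14 and the number lower to 5.

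Complexes I, III, IV and V had medians of -0.27, -0.32, -0.33 and -0.23, and complex II one of 0.03. With total reads these were -0.01, -0.05, -0.07 and 0.04, and 0.29 for complex II. With the pooled CCl4 counts described below they were -0.45, -0.46, -0.50 and -0.40, and -0.15 for complex II. Without the CCl4 library in those counts complex II had -0.28. In complex IV, Cox7b, Cox6c and Cox5b, 3 nuclear subunits around the catalytic core, fell. Cox7b had 186 CPM with corn oil, 116 with CCl4 and 176 when JT003 was added (log2 ratio -0.69 for CCl4 over corn oil). Cox6c had 186, 113 and 153 (-0.73), and Cox5b 214, 144 and 167 (-0.57). In all 3 the CCl4 library was the lowest of its model but above the SD library, which had 93.4, 101 and 124.

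In complex III, Uqcr11 was the 1 gene past the limit, at 188, 122 and 153 CPM (-0.63). In complex I, Ndufs7 fell from 129 to 87.6 (-0.56), with the accessory subunit Ndufb3 (53.2 to 35.8, -0.57) and the assembly factors Ndufaf3 and Ndufaf4 (both -0.57). Ndufs1 and Ndufs8, further core subunits, had log2 ratios of 0.07 and 0.02. In complex V, Atp5j, the coupling factor F6, fell from 203 to 142 (-0.52), whereas Atp5b and Atp5a1 had log2 ratios of 0.06 and 0.00. With total reads Atp5s (-1.14) and Atp5sl (-0.55) were the 2 genes still past the limit downwards, and the ratios were -0.42 for Cox7b, -0.46 for Cox6c, -0.31 for Cox5b, -0.36 for Uqcr11, -0.29 for Ndufs7, -0.31 for Ndufaf3 and -0.30 for Ndufaf4.

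For Atp5s 161 counts were listed with corn oil, 75 with CCl4 and 102 when JT003 was added. The log2 ratio was -1.39 (95% interval -1.84 to -1.02, adjusted p = 2.04e-12 by the exact conditional binomial test with Benjamini-Hochberg adjustment). By edgeR's exact test with an assumed coefficient of variation of 0.2 or 0.4, 0 of the 87 genes were called. Atp5sl fell as well, from 699 to 496 counts (-0.81), and neither is a subunit of ATP synthase. The genes past the limit upwards were low in reads. Cox6b2 rose from 15 to 46 counts (1.20), Ndufa4l2 from 28 to 60 (0.74, 0.11 to 1.48) and Ndufaf5, an enzyme that modifies a core subunit of complex I, from 54 to 109 (0.68).

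The fourth comparison, which shares the CCl4 library with the third, asks whether JT003 changed these genes under CCl4. The median log2 ratio was 0.07, against -0.01 for all genes, 56 of 87 were positive, and 4 genes were higher and 2 lower past the limit, where 12.2% and 11.8% of all genes were. None was called, where 4.43% of all genes were. By the adjusted p alone 42 passed, against 24.2% of all genes, at unlike read depth as above. Complex III and complex IV had medians of 0.23 and 0.15, complexes I and V 0.04 and 0.06, and complex II -0.24 with all 4 subunits below 0. The sign of complex II rests on the single CCl4 library. Its median was -0.02 against the pooled CCl4 counts described below and 0.11 against those counts without the library, where Sdhb, Sdhc and Sdhd had 0.35, 0.09 and 0.13 and Sdha -0.15.

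Accessory and core subunits lay on opposite sides. The 57 accessory subunits had a median of 0.12 with 45 positive, and the 17 core subunits one of -0.14 with 5 positive. Role and transcript length cannot be told apart here. Most core subunits have transcripts over 1000 bases and most accessory subunits shorter ones. By length alone the medians were 0.13 for members of at most 1000 bases and -0.10 for longer ones. The core side rests on the single CCl4 library. Against the remaining pooled CCl4 reads described below, most named core subunits were positive, with Ndufs7 at 0.79 and Uqcrfs1 at 0.44. Ndufs1 (-0.23), Sdha (-0.15) and Atp5a1 (-0.02) were negative there. Ndufa1, a short membrane subunit of complex I, rose from 51.7 to 86.3 CPM (0.74), above its corn oil level of 68.1. Cox7b rose from 116 to 176 (0.61), close to its corn oil level of 186. Ndufaf4 rose from 22.4 to 36.9 (0.72) and Atp5sl from 23.4 to 34.8 (0.57). Downwards, Ndufaf5 fell from 109 to 65 counts (-0.75) and Cox6b2 from 46 to 22 (-1.02). Among abundant genes, Atp5a1 had 871 and 677 CPM (-0.36), Sdha 377 and 300.0 (-0.33) and Atp5b 1163 and 946 (-0.30), all short of the limit.

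The log2 ratio varied with transcript length among the 87 genes here too, in the opposite direction. The rank correlation was -0.44 over the 87 genes and -0.01 over 14170 genes, given as a description over genes that share 2 libraries, and over the 87 genes it was 0.16 in HFD over SD, 0.37 with JT003 in the diet model and 0.33 in CCl4 over corn oil. Genes with transcripts of at most 1000 bases had a median of 0.13 (56 genes) and longer ones -0.10 (31 genes), against 0.08 and -0.02 among all genes. After centring in 20 length bins the median of the 87 genes was 0.00.

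**Figure D3:**
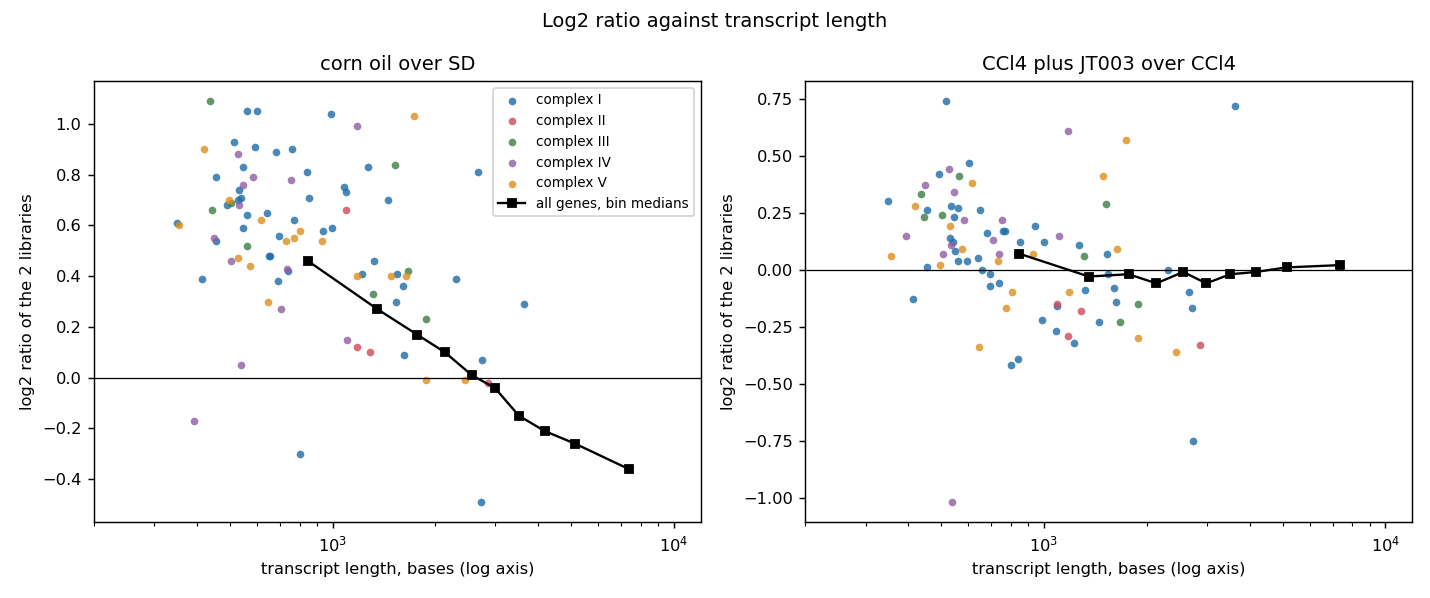
Log2 ratio against transcript length on a log axis, for corn oil over SD and for CCl4 plus JT003 over CCl4. Each coloured point is 1 of the 87 genes and black squares are medians of all genes in 10 length bins, drawn at the median length of each bin. In corn oil over SD the bin medians fall from 0.46 to -0.36 with length, and with JT003 under CCl4 they stay between -0.06 and 0.07.

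Both comparisons of the CCl4 model rest on the single CCl4 library. A comparison table holds a CCl4 column of expected counts that sums to 2.97 times this library, and its values appear to pool the library with others from the same treatment. This is inferred from the counts, which fell below those of the library in 24 genes, by 0.99 at most. The 87 genes took 1.17% of the pooled reads and 1.09% of the reads left after the library was subtracted, against 1.32% in the library. The remaining reads over the library gave a median log2 ratio of -0.35, where the median of all genes was 0.01, with 82 of 87 negative and 7 lower by at least 0.5 (4.11% of all genes were). Against the remaining CCl4 reads, the medians became -0.57 for CCl4 over corn oil, with 57 genes lower, and 0.48 for CCl4 plus JT003 over CCl4, with 38 higher and 0 lower. The difference between the library and the other CCl4 reads was thus larger than the difference between the library and CCl4 plus JT003.

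The shift was alike in the 5 complexes, with medians of -0.33 to -0.38 for the remaining reads over the library. Cox7b, Ndufs1 and Ndufaf4 lay near 0 (-0.03, 0.07 and 0.08), and Ndufs7 was the lowest (-0.61). With JT003, Cox7b was 0.64 higher on the log2 scale against the remaining reads and 0.61 against the library, Ndufa1 0.96 and 0.74, and Atp5sl 0.95 and 0.57. Atp5b and Atp5a1 were at 0.06 and -0.02 against the remaining reads, where the library gave -0.30 and -0.36. The fall of Atp5s with CCl4 was -0.91 with the remaining reads, short of the log2 ratio of 1 that a call needs, and the 2 genes called with those reads were Atp5sl (-1.15) and Ndufs7 (-1.14).

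**Figure D4:**
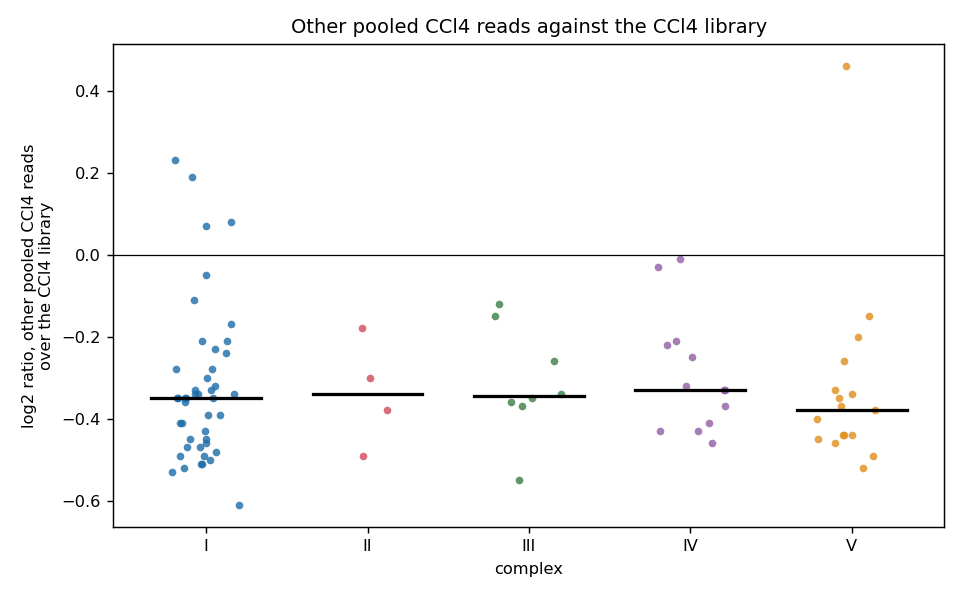
Log2 ratio of the pooled CCl4 reads without the CCl4 library over that library, for the 87 genes by complex. Each point is 1 gene and black bars are medians. The medians lie between -0.38 and -0.33, and 82 of 87 genes are below 0.

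The 2 JT003 comparisons share no library and can be set side by side. Across the 87 genes their log2 ratios had a Pearson correlation of -0.07 and a rank correlation of -0.20, a description over genes and not over samples. With JT003, 46 of the 87 genes were negative in the diet model and positive in the CCl4 model. Another 21 were negative in both, 10 positive in both and 10 positive in the diet model alone. Taken singly, 67 of the 87 were negative in the diet model and 56 positive in the CCl4 model. The 46 therefore do not by themselves show opposition gene by gene. Of 14152 genes with at least 10 counts, 3100 were negative in the diet model and positive in the CCl4 model. Their correlations were 0.10 (Pearson) and 0.15 (rank). Among the named genes, Cox5b, Cox6c and Cox7a2 of complex IV, Uqcrh of complex III and Ndufa1 of complex I had intervals on opposite sides of 0 and ratios of at least 0.2 in both models. The ratios of HFD over SD and of CCl4 over corn oil, which also share no library, had correlations of -0.08 (Pearson) and -0.05 (rank).

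**Figure D5:**
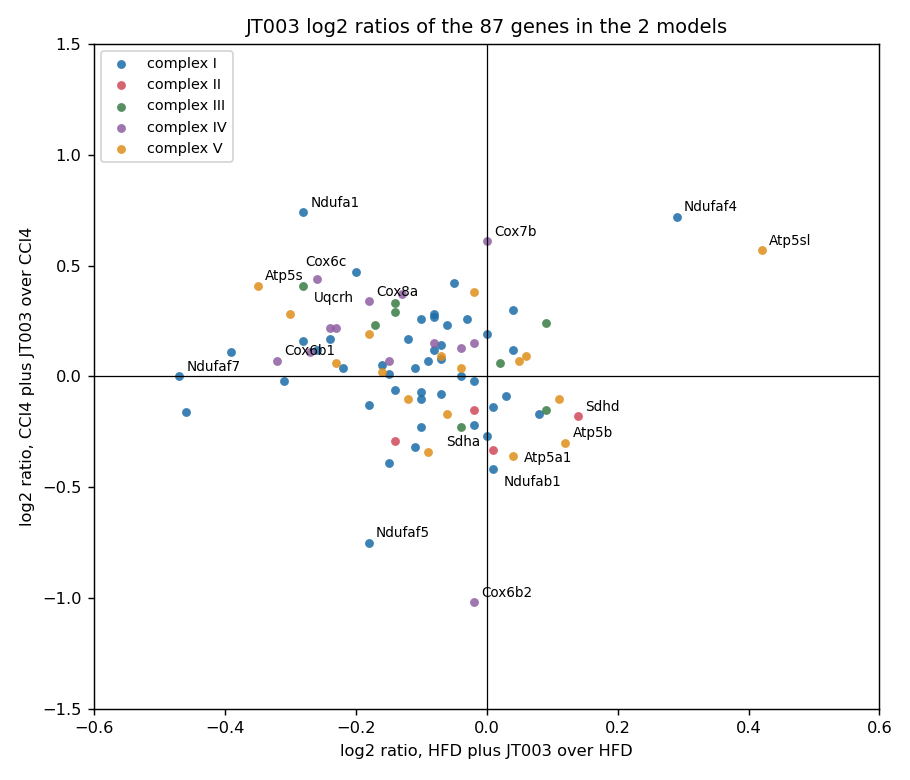
Log2 ratio with JT003 in the diet model (horizontal) and in the CCl4 model (vertical), 1 point per gene, coloured by complex. Of 87 genes 46 lie in the upper left (3100 of 14152 genes with at least 10 counts, not drawn), and Ndufaf4 and Atp5sl are positive in both.

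The corn oil and SD libraries are the controls of the 2 models. The 87 genes were higher in corn oil, with a median log2 ratio of 0.58 against 0.01 for all genes, 81 of 87 positive, and 51 higher and 0 lower past the limit, where 13.8% and 16.3% of all genes were. Uqcr11, Ndufa2, Ndufa6 and Atp5sl were called, where 5.51% of all genes were, and Uqcr11 had 88.2 and 188 CPM. Complex II had a median of 0.11, against 0.54 to 0.62 in the other complexes, but its 4 subunits ran from -0.02 to 0.66. Sdha had 335 and 330.0 CPM, while Sdhb had 127 and 200 and was the 1 past the limit. After centring in 20 length bins the median was -0.09 in complex II and 0.02 to 0.17 in the others, closer together than before. Macrophage markers summed to 317 CPM in SD and 74.2 in corn oil, and endothelial markers to 213 and 118, and their part in the difference was not tested. Ndufab1 and Ndufs1 were the lowest, with log2 ratios of -0.30 and -0.49.

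This difference moved with transcript length across the whole library. The rank correlation with length was -0.39 over 14166 genes and -0.38 over the 87 genes, of which 60 have transcripts in the shortest of 10 length bins of all genes (67 to 1122 bases). All genes with transcripts of at most 1000 bases had a median of 0.48, and genes for cytosolic and mitochondrial ribosomal proteins, which are also short, had medians of 0.48 (80 genes) and 0.38 (77 genes). Centring in 20 length bins brought the median of the 87 genes to 0.13 and the number higher to 8. The treatment, the model and the preparation of the libraries cannot be told apart here.

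Genes with and without 1 of the 3 promoter motifs had like ratios. The medians of 34 genes with a motif and 40 without were -0.12 and -0.17 in HFD over SD, -0.10 and -0.08 with JT003 in the diet model, -0.24 and -0.28 in CCl4 over corn oil, 0.09 and 0.07 with JT003 under CCl4, and 0.61 and 0.55 in corn oil over SD. Among the genes shown, Uqcr11 and Atp5h hold an ETS motif and fell with CCl4 and with the diet, respectively. Uqcr11 also holds an NRF1 motif in its window, which the bases shown do not contain in full. Sdhb holds an NRF1 motif and, beyond the bases shown, an ETS motif. It had log2 ratios of -0.04 in HFD and -0.14 in CCl4, short of the limit. Ndufab1, without any, fell with the diet.

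Genes next to the chain were taken from fixed lists. In HFD, the tricarboxylic acid cycle, which supplies NADH and succinate, had 6 of 13 genes lower and none higher, with a median of -0.32, where 10.4% of all genes were lower and 12.0% higher. Fh1, the fumarase, had a log2 ratio of -1.10, and Dlst and Ogdh of the 2-oxoglutarate dehydrogenase -0.89 and -0.80. Among 18 electron carriers and further subunits, 3 were lower (16.7%) and 1 higher (5.56%) in HFD. Etfdh and Etfb, which bring electrons from fatty acid oxidation to ubiquinone, had log2 ratios of -0.91 and -0.64, and Cycs, cytochrome c, -0.80. With JT003 in the diet model none of either list passed the limit, and Etfdh and Cycs were at 0.11 and 0.06.

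In CCl4, where 13.6% of all genes were lower and 15.0% higher, the same carriers had 4 lower (22.2%) and 2 higher (11.1%) of 18. Cycs had a log2 ratio of -0.54 and Coq10b, a ubiquinone-binding protein, one of -0.75. With JT003 under CCl4, Coq10b rose by 1.72 on the log2 scale and Adck3, a ubiquinone synthesis factor, fell by 1.44. Both CCl4 comparisons use the single CCl4 library, and these lists were read with TMM scaling alone. With total reads the median of all genes in CCl4 over corn oil was 0.24, against -0.02 with TMM. Of 35 assembly factors outside the symbol rule, 2 were higher (5.71%) and 6 lower (17.1%) in CCl4, the latter near the share of all genes. Atpif1, the inhibitor of ATP synthase, had a log2 ratio of 1.10 and Lyrm7, a complex III assembly factor, one of -1.17. Of these 35, 1 was higher and 2 were lower in HFD, 0 and 2 with JT003 in the diet model, and 0 and 4 with JT003 under CCl4, none a larger share than that of all genes. Sco2, a copper chaperone of complex IV, was lower in all 4 comparisons, at -1.29 in HFD, -0.82 with JT003 in the diet model, -0.71 in CCl4 and -0.82 with JT003 under CCl4.

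Of 13 regulators of mitochondrial gene expression, 4 were lower (30.8%, against 13.6% of all genes) and none higher in CCl4, led by the coactivator Ppargc1b (-1.60), with Esrra, an orphan nuclear receptor, at -0.60. With JT003 under CCl4 these 2 were higher (15.4%), at 0.63 and 0.78, and none of the 13 was lower (12.2% of all genes were higher and 11.8% lower). The fall and the rise share the single CCl4 library, and neither was checked with the pooled CCl4 counts or total reads. In HFD 1 of them, Nrf1, was lower (-0.54), and with JT003 in the diet model Gabpa was higher (0.51) and Ppargc1a lower (-0.51). Each is 1 of 13 genes (7.69%), where 10.4% of all genes were lower in HFD, and 6.28% higher and 6.40% lower with JT003.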

How the data were processed

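RNA of 6 mouse livers or liver pools, 1 library per condition, was sequenced by the authors on a BGISEQ-500 instrument. The submitters' processing notes name HISAT, Bowtie2, RSEM and build mm9, with no versions or roles. The authors deposited an expected count (their estimate of a gene's reads, not normalized) and an FPKM value per gene and library, along with 4 comparison tables of fold changes, p-values and annotation. From these tables only the expected count column for CCl4 was used, which appears to pool several libraries. The other 7 expression columns and the authors' fold changes and p-values were not used. In a library 69.9% to 70.9% of the expected counts were whole numbers, and a read shared by genes is split between them. A row that names no gene was left out (at most 0.00024% of the reads).

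The expected counts were used as whole numbers after rounding. TMM factors were taken over all 6 libraries (edgeR 4.0.16, R 4.3.3) and ran from 0.876 to 1.11. A pair of libraries was compared gene by gene, where either had a read, by an exact conditional binomial test, two-sided (scipy 1.17.1, Python 3.11.15, numpy 2.4.6, pandas 2.3.3), with Benjamini-Hochberg adjustment over all genes. The log2 ratio (prior count 2) was given a 95% Clopper-Pearson interval. Calls needed an adjusted p under 0.001 and a log2 ratio of 1 or more in either direction. The script was tested on simulated data. Shares of all genes past the limit of 0.5 are over genes that reached 10 counts in any library.

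The 87 genes and all lists were chosen with earlier results of these data known. Named genes are those called, the highest and lowest log2 ratio per complex and comparison among genes with at least 100 counts, the highest and lowest FPKM per complex in SD, core subunits, and isoforms of other tissues with their partners. The genes Ndufa2, Ndufa6, Ndufa13, Ndufb3, Ndufaf1, Atp5g1, Atp5g3 and Atp5j were named after their values were seen. Alternatives were total reads, DESeq2 1.42.0 size factors, TMM within a model, centring by length or expression, other count minimums and limits, FPKM, subsets of the genes, the pooled CCl4 counts and edgeR's exact test with an assumed spread. Promoters came from RefSeq (GRCm38.p6) and no file coordinates were used. Plots were made with matplotlib 3.10.9.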

Additional observations from a re-analysis of the deposited data

Results flagged for a closer look

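The median log2 ratio with JT003 was opposite in sign in the 2 models over the 87 genes and in complexes I, III, IV and V. With 1 library per condition the difference was not tested. Over the 87 genes the median log2 ratio was -0.09 in the diet model and 0.07 in the CCl4 model. It was -0.10 and 0.04 in complex I, -0.09 and 0.23 in complex III, -0.15 and 0.15 in complex IV, and -0.06 and 0.06 in complex V. Complex II had -0.01 and -0.24, the same sign, and the core subunits had 0.01 and -0.14. Both negative CCl4 values rest on the single CCl4 library, and complex II had 0.11 against the remaining pooled reads. Among named genes with ratios of at least 0.2 in both models, a limit chosen after the values were seen, Cox5b had -0.24 in the diet model and 0.22 in the CCl4 model, Cox6c -0.26 and 0.44, Cox7a2 -0.23 and 0.22, Ndufa1 -0.28 and 0.74, and Uqcrh -0.28 and 0.41. After centring in bins of transcript length the medians of the 87 genes were 0.02 and 0.00, and against the pooled CCl4 reads without the CCl4 library the CCl4 value was 0.48.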

How the results depend on the processing

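No paired analysis was possible because each condition has 1 library. No replicate could be left out for the same reason, so the pooled CCl4 counts are the only check on a library. DESeq2 size factors, TMM within a model, centring on the median of all genes, a prior count of 0.5 and counting genes from 1 read kept the medians within their order-statistic interval and every count within 1.5 times. Alternatives for corn oil over SD, and all with the CCl4 library subtracted, were chosen after seeing the data. In the values that follow, a count is of genes past the limit of 0.5. With total reads the medians were -0.01 (HFD over SD), 0.01 (CCl4 over corn oil) and 0.15 (CCl4 plus JT003 over CCl4), 3 genes were higher and 2 lower in HFD over SD, 2 lower in CCl4 over corn oil with 2 called, and 1 lower in corn oil over SD. With log2 of FPKM plus 1 or plus 0.1, both of which follow total reads, the medians were -0.01, 0.01 and 0.15. HFD over SD had 3 or 4 higher and 1 or 2 lower, CCl4 over corn oil 1 lower, CCl4 plus JT003 over CCl4 7 higher and 1 lower (the latter with FPKM plus 1), and corn oil over SD 1 lower. Centring in 20 length bins gave medians of 0.02 (HFD plus JT003 over HFD), -0.14 (CCl4 over corn oil), 0.00 (CCl4 plus JT003 over CCl4) and 0.13 (corn oil over SD), with 2 lower in HFD over SD, 5 lower in CCl4 over corn oil, 4 lower in CCl4 plus JT003 over CCl4, and 8 higher and 1 lower in corn oil over SD. Centring in 20 bins of mean expression gave medians of -0.01 (HFD over SD), -0.18 (CCl4 over corn oil) and 0.16 (CCl4 plus JT003 over CCl4), with 2 higher and 3 lower in HFD over SD and 8 higher in CCl4 plus JT003 over CCl4. With at least 100 counts, 0 genes were higher in HFD over SD, 1 higher in CCl4 over corn oil and 1 lower in CCl4 plus JT003 over CCl4, and the same 3 counts (0, 1 and 1) were reached without the isoforms of other tissues. With structural subunits only, 7 were lower in CCl4 over corn oil, and 2 higher and 1 lower in CCl4 plus JT003 over CCl4. A limit of 0.3 gave 5 higher and 21 lower in HFD over SD, 1 and 5 in HFD plus JT003 over HFD, 35 lower in CCl4 over corn oil, 12 and 8 in CCl4 plus JT003 over CCl4, and 1 lower in corn oil over SD. A limit of 1 gave 1 lower in HFD over SD, 1 higher and 1 lower in CCl4 over corn oil, 0 and 1 in CCl4 plus JT003 over CCl4, and 5 higher in corn oil over SD. By the adjusted p alone 34, 16, 56 and 42 genes were called in the 4 comparisons, and edgeR's exact test with an assumed coefficient of variation of 0.2 or 0.4 called 0 in CCl4 over corn oil, where the exact binomial test called 1. The pooled CCl4 counts gave medians of -0.45 and 0.33 in the 2 comparisons that use CCl4, with 31 lower in the first (2 called) and 18 higher in the second. Without the CCl4 library they gave -0.57 and 0.48, with 57 lower (2 called), and 38 higher and 0 lower. No named gene reversed past the limit, while 14 of their values fell under it and 43 newly passed it in the same direction. Others moved, by leaving their counting interval or by passing the limit on the other side. These were 88 values with total reads, 46 with the pooled CCl4 counts and 33 with those counts without the library. The causes were not tested. Genes with under about 100 counts in at least 1 library, among them Cox6b2, Ndufa4l2 and Atp5s (75 counts in CCl4), have wide intervals at this depth.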
